A study of Homo sapiens with 6 samples.

Results

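PDE3A, its paralog PDE3B, the chromosome 12 neighbour SLCO1B3 and the Schlafen genes SLFN5, SLFN11, SLFN12 and SLFN13 were followed in H1299, a p53-deficient cell line established from a human non-small cell lung cancer. The libraries came from SETDB1-knockout cells, which carried the guide RNA hSETDB1 sg1 (n = 3), and from control-knockout cells, which carried Control sg2 (n = 3). All cells were grown in RPMI-1640 with serum, antibiotics and puromycin, so medium and selection were shared, and each group was made with 1 guide. The labels do not say whether replicates were separate cultures or clones, so p-values measure only the spread between these samples. The 7 genes were found by symbol among 18677 rows of gene counts, and 5 of them had a row, all of which passed the filter on low counts. SLFN11 and SLFN13 were not analysed here. PDE3A was chosen by its higher level beside SLCO1B3 in this same comparison, so values of those 2 genes are a description with no test. PDE3B and the Schlafen genes came in as family members and were tested.

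PDE3A and PDE3B are phosphodiesterases that hydrolyse the second messenger cAMP and are inhibited by cGMP. Schlafen proteins are interferon-inducible, and several of them cut or bind RNA. SLFN12 is an RNase that cleaves a leucine tRNA. Small molecules called velcrins bind PDE3A and glue it to SLFN12, which stabilises SLFN12 and kills cells that carry both proteins. SLFN11 sensitises cancer cells to DNA-damaging drugs. SLCO1B3 encodes the hepatocyte uptake transporter OATP1B3, and some tumours transcribe it from a start inside the gene. SETDB1 deposits the repressive H3K9me3 mark.

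Library totals ranged from 29532057 to 34320279 counts in the SETDB1 knockout and from 30729681 to 35941288 counts in the control. Levels are in CPM, counts scaled to each library's TMM-adjusted total. Each log2 fold change divides SETDB1 knockout by control and carries a standard error (SE). A call is an edgeR adjusted p under 0.05, and rose or fell by a value, where no fold is named, gives the log2 fold change of a called gene. SETDB1 mRNA, the targeted transcript, measured 40.6, 36.1 and 39.1 CPM in SETDB1-knockout libraries, against 45.0, 43.96 and 41.6 CPM in controls, a log2 fold change of -0.17 ± 0.06 (SE; edgeR adjusted p = 0.0151). That call was lost without SETDB1-knockout replicate 2 (edgeR adjusted p = 0.0896) and with library size alone (0.0605), so the mRNA checks the labels only in part. Of 8 epithelial and lung cancer markers 6 had a row, while CDH1 and KRT19 had none. Their summed level was 484 to 498 CPM in SETDB1-knockout libraries, against 944 to 1014 CPM in control libraries. Nearly all of it came from the keratin genes KRT8 and KRT18, which fell by 1.22 ± 0.05 and 0.85 ± 0.06. The other 4 were under 1 CPM in both groups. Among them NAPSA rose by 1.48 ± 0.42, although its groups overlapped, and NKX2-1 fell by 0.99 ± 0.31. KRT7 had no call and EPCAM was not tested. The part of this difference in the results for single genes was not tested. The leucocyte, fibroblast, endothelial and cardiomyocyte markers summed to at most 1.94 CPM per list in SETDB1-knockout cells, against 3.84 CPM in control cells, and the 5 hepatocyte markers had no row.

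PDE3A spans chr12:20369245-20684381 on the plus strand (GRCh38, GENCODE 29), and SLCO1B3 starts 126 kb beyond its end on the same strand. Windows from 250 bases before to 50 bases after an annotated RefSeq start are shown for both genes, for SLCO1B1 and for SLFN12. SLCO1B1 is the next transporter gene that was tested. The aim was to set windows of the genes that were higher together on chromosome 12 beside that of the velcrin partner. They come from a table of RefSeq promoters (GRCh38.p14), in which 4 of the 7 genes were matched by symbol. These were PDE3A, SLCO1B3, SLFN12 and SLFN11, and the SLFN11 window is not shown. SLCO1B1 is not one of the 7, and PDE3B, SLFN5 and SLFN13 are named only. Capitals mark CG dinucleotides and the letters GTTAAT on either strand, which are part of the site of the liver factor HNF1.
PDE3A: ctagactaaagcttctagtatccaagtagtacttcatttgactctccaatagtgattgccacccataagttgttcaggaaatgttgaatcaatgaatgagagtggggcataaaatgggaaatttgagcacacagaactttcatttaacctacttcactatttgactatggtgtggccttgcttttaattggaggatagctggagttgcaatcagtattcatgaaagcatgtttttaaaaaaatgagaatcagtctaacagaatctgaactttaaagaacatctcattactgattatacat
SLCO1B3: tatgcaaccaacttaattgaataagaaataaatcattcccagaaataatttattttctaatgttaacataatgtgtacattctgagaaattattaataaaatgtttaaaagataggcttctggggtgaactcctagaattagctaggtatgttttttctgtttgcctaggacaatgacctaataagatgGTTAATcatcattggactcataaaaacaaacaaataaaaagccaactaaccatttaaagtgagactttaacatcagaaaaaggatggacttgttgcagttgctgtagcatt
SLCO1B1: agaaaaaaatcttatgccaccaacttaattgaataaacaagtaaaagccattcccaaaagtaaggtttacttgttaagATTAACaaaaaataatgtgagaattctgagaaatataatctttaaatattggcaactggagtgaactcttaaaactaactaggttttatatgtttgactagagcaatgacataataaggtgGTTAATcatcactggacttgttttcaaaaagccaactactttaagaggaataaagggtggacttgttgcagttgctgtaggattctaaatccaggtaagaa
SLFN12: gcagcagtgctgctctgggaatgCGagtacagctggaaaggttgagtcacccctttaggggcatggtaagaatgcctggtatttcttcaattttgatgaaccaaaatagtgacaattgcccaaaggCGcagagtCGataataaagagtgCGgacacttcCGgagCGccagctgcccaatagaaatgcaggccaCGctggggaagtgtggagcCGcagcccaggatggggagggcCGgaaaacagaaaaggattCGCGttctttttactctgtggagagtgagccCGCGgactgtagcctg

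These windows lie at chr12:20571829-20572128, chr12:20810455-20810754, chr12:21130944-21131243 (all plus strand) and chr17:35433125-35433424 (minus strand). The PDE3A window belongs to a RefSeq start inside the gene, 203 kb downstream of the start of the GENCODE coding transcript PDE3A-201, and 0.215 kb from the start of the non-coding transcript PDE3A-203. Counts are per gene, so which start was used was not measured. The windows of PDE3A, SLCO1B3 and SLCO1B1 held 0 CG dinucleotides and had a GC content of 35%, 30% and 31.3%, whereas the SLFN12 window held 13 CG dinucleotides at a GC content of 53.3%. Over 35116 promoters of the same length the median was 14 CG dinucleotides, and 3.96% held none. GTTAAT was found in 0 places in the PDE3A window, 1 in that of SLCO1B3, 2 in that of SLCO1B1 and 0 in that of SLFN12, and 6.88% of all promoters held it. The full cAMP response element TGACGTCA (1.85% of all promoters, both strands searched), its shorter form TGACG (24.6%, which overlaps the full element) and the core of the interferon-stimulated response element (GAAA, any 2 bases, GAAA; 3.57%) had 0 matches in each of the 4 windows. TATAAA (11.5% of all promoters) matched once, in SLCO1B1.

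PDE3A (ENSG00000172572.6) was nearly silent in control cells and clearly expressed in SETDB1-knockout cells. It stood at 7.67, 8.47 and 8.28 CPM in SETDB1-knockout libraries, against 0.734, 0.883 and 0.424 CPM in the control libraries, from 230, 293 and 283 counts in SETDB1-knockout libraries, against 22, 28 and 15 counts in control libraries. The groups did not overlap, and the lowest SETDB1-knockout library was far above the highest control library. The mean was 8.14 ± 0.419 CPM in SETDB1-knockout cells, against 0.680 ± 0.234 CPM in control cells (SD, n = 3 each), a log2 fold change of 3.60 ± 0.16 (SE), or 12.1-fold. By log2 fold change PDE3A ranked 230 of 17675 genes tested. In these bulk libraries, more cells with the transcript and more transcript per cell cannot be told apart.

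SLCO1B3 (ENSG00000111700.12, chr12:20810702-20916911) was already expressed in control cells and was 7.12-fold higher in the SETDB1 knockout. Its level was 32.3, 36.4 and 33.1 CPM in SETDB1-knockout libraries, against 5.67, 4.26 and 4.43 CPM in control libraries, without overlap, a log2 fold change of 2.83 ± 0.09 (SE). The gene AC011604.2 (GENCODE 29, protein coding) overlaps SLCO1B3 on the same strand, and 52.7% of the 50-base stretches of SLCO1B3 transcripts also occur in its transcripts. Reads in the shared exons can therefore have been dropped or assigned to either gene. AC011604.2 itself drew 30 counts from SETDB1-knockout libraries, against 6 from control libraries, and was not tested.

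**Figure D1:**
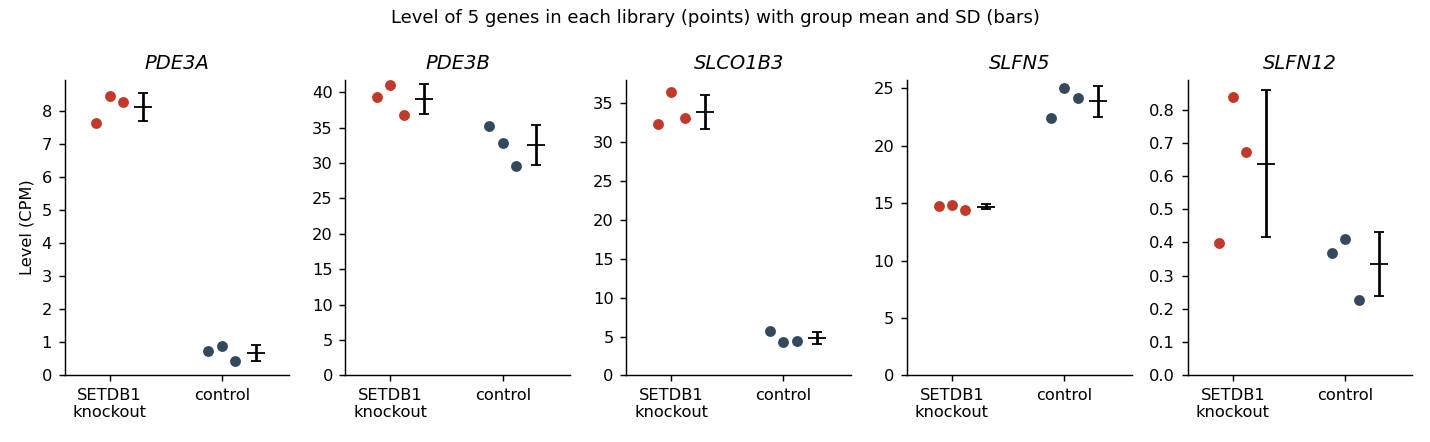
Level in CPM (vertical axes, linear and different for each gene) of PDE3A, PDE3B, SLCO1B3, SLFN5 and SLFN12 in each of the 3 SETDB1-knockout and 3 control libraries (points), with the group mean and SD (bars). PDE3A and SLCO1B3 were higher in every SETDB1-knockout library, SLFN5 was lower in every one, and the SLFN12 groups overlap.

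The transporter genes downstream of SLCO1B3 were also higher, the last of them, SLCO1A2, by the least, although SLCO1B7 was not tested. SLCO1B1, which encodes the hepatocyte transporter OATP1B1, had 30, 33 and 24 counts in SETDB1-knockout libraries and 4, 4 and 6 in control libraries. Its log2 fold change was 2.58 ± 0.33 (SE), at 0.885 ± 0.160 CPM in SETDB1-knockout cells, against 0.143 ± 0.0232 CPM in control cells. It passed the filter on low counts through the SETDB1-knockout libraries alone, so no p is given. SLCO1B7 lies between SLCO1B3 and SLCO1B1 and was below the filter on low counts, with 33 counts over the SETDB1-knockout libraries, against 4 over the control libraries. That is a scaled ratio of 8.11, with an exact 95% interval of 2.88 to 31.5 that covers counting error only. AC011604.2, which ends at chr12:21090245, also overlaps SLCO1B7 on the same strand, and which gene these reads came from was not tested. SLCO1A2, the last gene of the cluster and on the minus strand, rose by 0.38 ± 0.11 (edgeR adjusted p = 0.00388). The gene between PDE3A and SLCO1B3, SLCO1C1, was not analysed here.

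Inside the PDE3A span, the processed pseudogene AC112777.1 on the same strand rose by 0.43 ± 0.07 (edgeR adjusted p = 1.24e-05), at 19.97 ± 1.02 CPM in SETDB1-knockout cells, against 14.9 ± 0.220 CPM in control cells. Its level exceeded that of PDE3A in both groups, and reads of a processed pseudogene can belong to its source gene. Upstream of PDE3A, the pseudogenes PSMC1P9, PDCD5P1 and EEF1A1P4 fell by 0.65 ± 0.12, 0.91 ± 0.10 and 0.20 ± 0.07, and PLEKHA5, which encodes a membrane-associated adaptor, fell by 0.34 ± 0.06. RPL7P6 and AEBP2, a Polycomb cofactor gene, had log2 fold changes of 0.28 ± 0.17 and 0.11 ± 0.07 without a call. The EEF1A1P4 call was lost without SETDB1-knockout replicate 3 (edgeR adjusted p = 0.134) and without control replicate 3 (0.214). Of the 6 tested rows upstream, 4 were thus called lower and none higher, where 31.6% of all genes tested were lower and 31.9% higher. Beyond SLCO1A2 the rows went both ways, as the plot around PDE3A shows, with PYROXD1, GOLT1B and SPX at -0.30 ± 0.08, -0.42 ± 0.07 and -0.86 ± 0.28 and LDHB and CMAS at 0.48 ± 0.06 and 0.27 ± 0.06, all called. Within 2 Mb of the PDE3A start 19 rows were tested, PDE3A and SLCO1B3 among them, and their median log2 fold change was 6.52e-04.

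**Figure D2:**
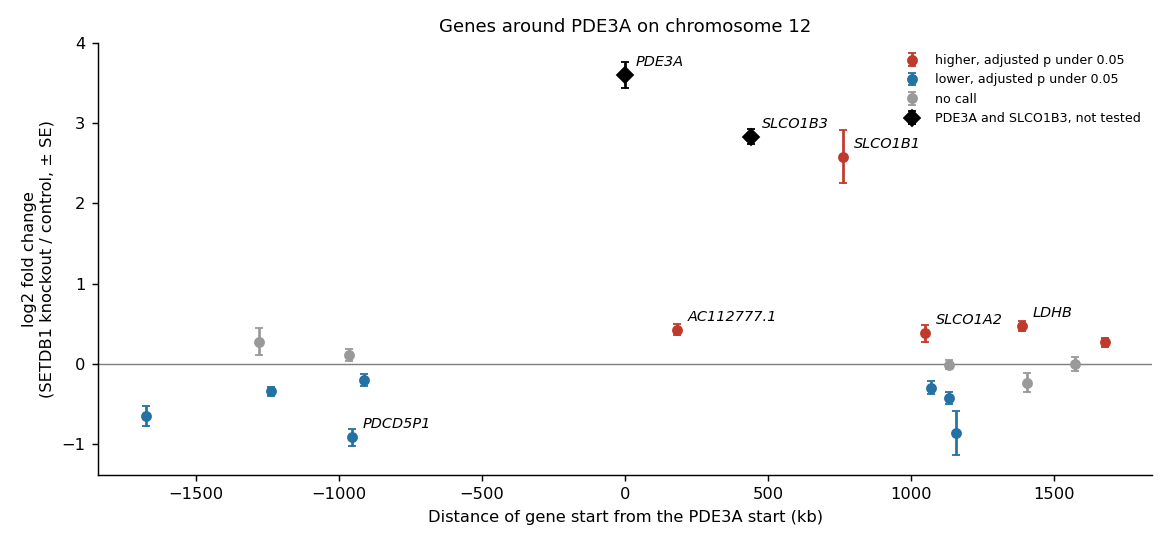
Log2 fold change, SETDB1 knockout over control, with SE (vertical axis) against the distance in kb of each gene's start from the PDE3A start (horizontal axis), for the 19 tested genes within 2 Mb. PDE3A, SLCO1B3 and SLCO1B1 stand between 2.58 and 3.60, and the other genes lie between -0.91 and 0.48.

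PDE3B (ENSG00000152270.8, chr11:14643723-14872044) had a smaller fold change than its paralog and was the more abundant of the pair; the difference between their fold changes was not tested. Levels were 39.4, 41.0 and 36.8 CPM in SETDB1-knockout libraries, against 35.2, 32.8 and 29.6 CPM in control libraries. The groups did not overlap, although the lowest SETDB1-knockout library was close to the highest control library. The log2 fold change was 0.27 ± 0.07 (SE; edgeR adjusted p = 0.00157), a rise of 1.20-fold. The transcripts of PDE3A shared 0 of their 8347 stretches of 50 bases with those of PDE3B.

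Per kilobase of annotated exon, PDE3B remained the more abundant of the pair in every library. PDE3A was at 0.969 ± 0.0499 CPM per kb and PDE3B at 3.34 ± 0.180 CPM per kb in the SETDB1 knockout, against 0.0810 ± 0.0279 CPM per kb for PDE3A and 2.78 ± 0.237 CPM per kb for PDE3B in the control. PDE3A made up 21.4%, 22.3% and 23.9% of the summed PDE3 level per kb in the SETDB1-knockout libraries and 2.83%, 3.62% and 1.95% in the control libraries. Its share of all 17 genes with a row that are named as phosphodiesterases was 2.90 ± 0.0895% in SETDB1-knockout cells, against 0.281 ± 0.0971% in control cells. PDE6D and PDE12 are among those genes, so the share is not one of cAMP and cGMP enzymes alone. On the same scale, levels in the SETDB1 knockout ran from SLCO1B3 (9.58 ± 0.617 CPM per kb) through PDE3B, SLFN5 (1.37 ± 0.0225) and PDE3A to SLFN12 (0.179 ± 0.0621). In the control the order was PDE3B, SLFN5 (2.23 ± 0.126), SLCO1B3 (1.35 ± 0.218), SLFN12 (0.0939 ± 0.0270) and PDE3A, and the last pair did not differ beyond their spread. These lengths take in the exons of all annotated transcripts, so they understate genes that use few of them.

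SLFN5 (ENSG00000166750.9, chr17:35243036-35273655), described as a co-repressor of interferon-driven transcription, was the most abundant Schlafen transcript with a row and fell. The 3 SETDB1-knockout libraries had 14.8, 14.9 and 14.4 CPM, against 22.4, 25.04 and 24.2 CPM in the control libraries, with no overlap between groups. The log2 fold change was -0.70 ± 0.07 (SE; edgeR adjusted p = 1.64e-08), a level 1.62-fold lower in the SETDB1 knockout. The call was made in each of the alternatives that gave a test, with adjusted p from 6.63e-23 to 1.76e-06.

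SLFN12 (ENSG00000172123.12, chr17:35411060-35433283), the RNase that PDE3A binds in the presence of velcrins, was low in both groups. It had 12, 29 and 23 counts in the SETDB1-knockout libraries, against 11, 13 and 8 counts in the control libraries. On the CPM scale that was 0.400, 0.838 and 0.673 CPM in SETDB1-knockout libraries, against 0.367, 0.410 and 0.226 CPM in control libraries. SETDB1-knockout replicate 1 lay within the range of the control libraries, so the groups overlapped. The log2 fold change was 0.96 ± 0.33 (SE; edgeR adjusted p = 0.0156). It missed the threshold without SETDB1-knockout replicate 2 (log2 fold change 0.71, edgeR adjusted p = 0.108), without control replicate 3 (0.72, edgeR adjusted p = 0.0927) and with DESeq2 (0.95, adjusted p = 0.0610). The transcripts of SLFN12 shared 1.32% of their 50-base stretches with SLFN12L and 0 stretches with SLFN13 or SLFN11, so few reads of that length could be split between them.

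The called members are read against a background in which 63.5% of the 17675 genes tested were called in either direction, 31.9% of them higher and 31.6% lower. For 66.8% of the genes tested, no library of either group fell within the other group's range. PDE3B, SLFN5 and SLFN12 were all called, 2 higher and 1 lower, and 2 of the 3 did not overlap, so their calls do not set them apart from the background. SLFN5 and SLFN12 moved in opposite directions, and the difference between them was not tested.

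Genes around the Schlafen cluster had log2 fold changes of under 1 in size. SLFN5 and SLFN12 were the members of the 7-gene Schlafen list with a row, while SLFN12L, SLFN14 and SLFNL1 were not analysed here, as with SLFN11 and SLFN13. AC022916.1, an antisense gene that begins within 0.073 kb of the SLFN5 start, had a log2 fold change of 0.41 ± 0.28 without a call, and whether counting used the strand is not stated. Beyond the cluster, the non-coding gene LINC02001 rose by 0.79 ± 0.10 (edgeR adjusted p = 6.88e-07), at 8.85 ± 0.743 CPM in SETDB1-knockout cells, against 5.14 ± 0.429 CPM in control cells. AP2B1, a clathrin adaptor gene, had -0.13 ± 0.05, a call that was lost in 5 of the 6 fits that left out 1 library (edgeR adjusted p from 0.0559 to 0.105 in those 5). On the other side, the ribosome assembly gene NLE1 rose by 0.20 ± 0.06, and the recombination gene RAD51D had -0.07 ± 0.08 without a call. Within 1 Mb of the SLFN5 start, 6 of 17 tested genes were higher and 3 lower, at a median log2 fold change of 0.00679. Over all genes tested, 31.9% were higher and 31.6% lower.

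**Figure D3:**
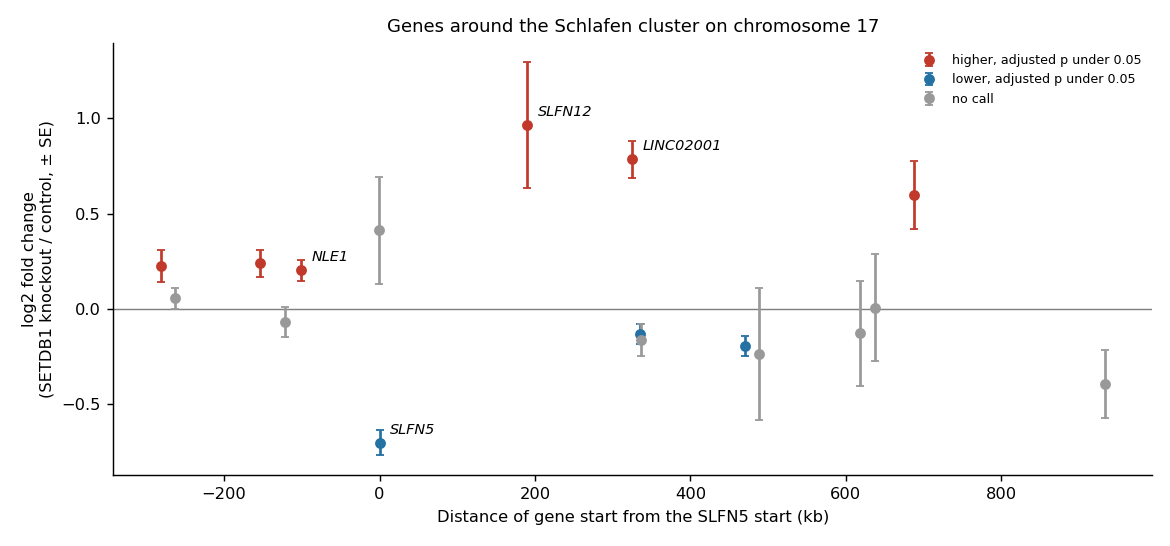
Log2 fold change, SETDB1 knockout over control, with SE (vertical axis) against the distance in kb from the SLFN5 start (horizontal axis), for the 17 tested genes within 1 Mb. SLFN5 at -0.70 and SLFN12 at 0.96 mark the lower and upper ends of the plotted values.

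Among the other phosphodiesterase genes, 3 of the 4 genes of the cAMP-specific PDE4 family rose in the SETDB1 knockout. Of 16 tested besides PDE3A, 8 rose, 4 fell and 4 were not called, against 31.9% higher and 31.6% lower over all genes tested. The 16 were listed by gene name and include PDE6D, which rose, and PDE12, without a call. Their median log2 fold change was 0.25, against 0.00949 over all genes tested. PDE9A among the 8, and PDE2A among the 4 that fell, passed the filter on low counts through 1 group alone. PDE4B rose 5.997-fold to 3.37 ± 0.333 CPM, against 0.558 ± 0.0371 CPM in the control (edgeR adjusted p = 1.57e-10). PDE4A rose 2.03-fold to 30.5 ± 1.02 CPM, against 14.98 ± 0.838 CPM in the control (edgeR adjusted p = 4.35e-11), and PDE4D rose 1.66-fold to 14.3 ± 0.614 CPM, against 8.66 ± 0.290 CPM in the control (edgeR adjusted p = 5.81e-08). The fourth gene of that family, PDE4C, fell by 0.55 ± 0.20 at 1.26 ± 0.258 CPM in the SETDB1 knockout, against 1.85 ± 0.395 CPM in the control, and the call was lost with DESeq2 (adjusted p = 0.0544), without SETDB1-knockout replicate 3 (edgeR adjusted p = 0.132) and without control replicate 2 (0.112).

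The cGMP-specific PDE9A drew 80 counts from SETDB1-knockout libraries, against 1 from control libraries, a scaled ratio of 78.6 with an exact 95% counting interval of 13.7 to 3144. PDE2A, whose product hydrolyses both cyclic nucleotides, moved the other way. It had 11 counts over the SETDB1-knockout libraries, against 55 over the control libraries (log2 fold change -2.31 ± 0.39). PDE9A passed the filter on low counts through the SETDB1-knockout libraries alone and PDE2A through the control libraries alone, so no p is given for either. PDE8A and PDE7A, which encode high-affinity cAMP phosphodiesterases, fell by 0.46 ± 0.06 and 0.22 ± 0.06. PDE10A, which accepts both nucleotides, rose by 0.57 ± 0.06. PDE6B and PDE6D, a photoreceptor enzyme gene and a gene for a carrier of lipid-modified proteins, rose by 1.20 ± 0.18 and 0.47 ± 0.07. Summed over the 17 genes per kb, transcripts of genes named as phosphodiesterases stood at 33.4 ± 0.908 CPM per kb in SETDB1-knockout cells, against 28.8 ± 0.0671 CPM per kb in the control. That sum is not one of cAMP and cGMP enzymes alone, because the list was drawn up by gene name. It takes in PDE6D, at 6.29 ± 0.232 CPM per kb in the SETDB1 knockout, against 4.54 ± 0.0935 in the control. It also takes in PDE12, at 5.91 ± 0.575 CPM per kb in the SETDB1 knockout, against 6.34 ± 0.222 in the control.

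**Figure D4:**
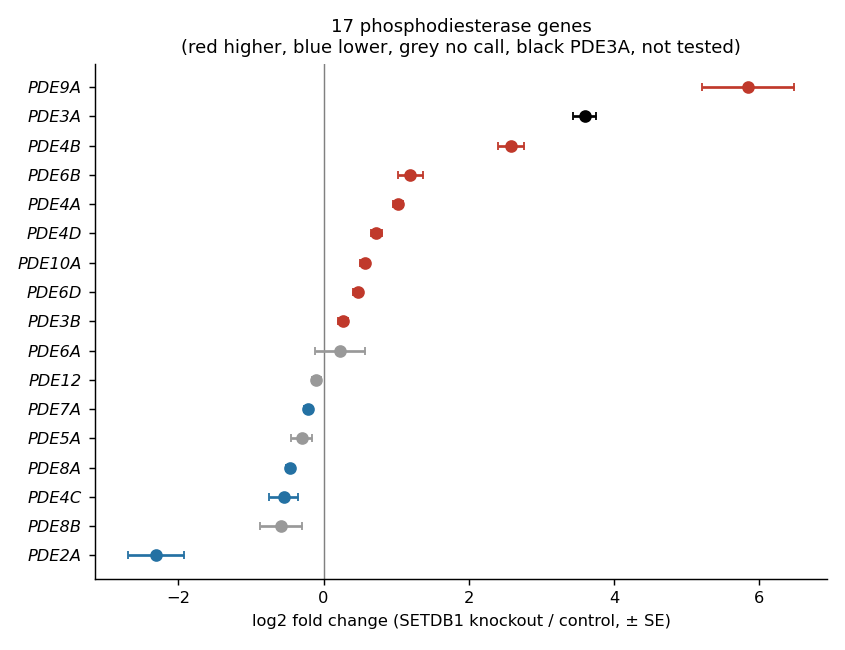
Log2 fold change, SETDB1 knockout over control, with SE (horizontal axis) of the 17 phosphodiesterase genes tested (vertical axis), coloured by call, with PDE3A in black and not tested. PDE9A and PDE3A stand at the top at 5.85 and 3.60, and PDE2A at the bottom at -2.31, where PDE9A rests on 1 control count.

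Genes that make, bind or carry cAMP and cGMP signals split in both directions. Of 37 tested, 9 rose and 13 fell, against 31.9% higher and 31.6% lower over all genes tested, at a median log2 fold change of -0.05. The adenylyl cyclase gene ADCY7, whose product makes cAMP, rose 3.19-fold to 14.7 ± 0.844 CPM, against 4.61 ± 0.738 CPM in the control (edgeR adjusted p = 1.54e-11). GNAS, which encodes the stimulatory G protein subunit, rose 1.27-fold, and its relative GNAL fell to 3.999 ± 0.494 CPM, against 13.0 ± 0.325 CPM in the control (edgeR adjusted p = 4.73e-12). Genes for both cAMP-activated exchange factors fell, RAPGEF3 by 1.27 ± 0.08 and RAPGEF4 by 1.51 ± 0.19 on the log2 scale. The protein kinase A regulatory subunit gene PRKAR1B rose by 0.82 ± 0.08, while the catalytic subunit genes PRKACA and PRKACB had log2 fold changes of 0.04 ± 0.05 and -0.01 ± 0.09 without a call. On the cGMP side, the natriuretic peptide receptor gene NPR2 fell by 1.08 ± 0.06, and the soluble guanylyl cyclase gene GUCY1B1 rose by 0.94 ± 0.13. AKAP12, which encodes a scaffold for protein kinase A, fell by 0.53 ± 0.05.

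Genes that cAMP is known to induce did not move one way. Of 11 tested, 5 rose and 3 fell, against 31.9% higher and 31.6% lower over all genes tested, at a median of 0.17. PER1, JUNB and FOS rose by 1.02 ± 0.07, 0.83 ± 0.06 and 0.46 ± 0.10, with PDE4D also on this list. The phosphatase gene DUSP1 fell by 0.78 ± 0.07, the metabolic coactivator gene PPARGC1A by 0.39 ± 0.09 and the orphan receptor gene NR4A1 by 0.24 ± 0.07. The orphan receptor genes NR4A2 and NR4A3 had log2 fold changes of -0.05 ± 0.13 and -0.07 ± 0.24 without a call.

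Of 12 tested partners of PDE3A and Schlafen proteins other than PDE3A and SLFN12, 4 rose and 3 fell, at a median of 0.11. Over all genes tested, 31.9% were higher and 31.6% lower. RPA1, a single-strand DNA binding subunit that SLFN11 binds, rose by 0.64 ± 0.06, and RPA3 fell by 0.29 ± 0.07. YWHAE, an adaptor for phosphorylated proteins such as PDE3A, rose by 0.61 ± 0.06, and its relative YWHAG had -0.14 ± 0.06. The replication licensing gene CDT1 had -0.13 ± 0.05. The calls of CDT1 and YWHAG were lost with library size alone (edgeR adjusted p = 0.143 for each), so that 1 partner was then called lower. Over the fits that left out 1 library, 1 to 2 partners were called lower, against 3 in the main fit, and 3 to 7 higher. There was 1 called lower without SETDB1-knockout replicate 1 or 3 or control replicate 2. Without control replicate 3, 7 of the 12 were called higher, with RPA2, HSPA8 and YWHAB added at log2 fold changes of 0.14 to 0.17.

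Of 15 tested genes of interferon signalling, which induces Schlafen genes, 2 rose and 8 fell, at a median of -0.16. Over all genes tested, 31.9% were higher and 31.6% lower. The number called lower on this list was 6 to 8 over the fits that left out 1 library. The 8 include IRF1 (-0.18 ± 0.08), whose call was lost with DESeq2 (adjusted p = 0.114) and in 5 of the 6 fits that left out 1 library. The kinase genes JAK1 and JAK2 fell by 0.66 ± 0.05 and 0.58 ± 0.07, and the receptor genes IFNAR1 and IFNGR1 fell by 0.35 ± 0.06 and 0.43 ± 0.06. IFNGR2 and SOCS3, a receptor chain gene and a feedback inhibitor gene, rose by 0.46 ± 0.05 and 0.27 ± 0.07. The transcription factor genes STAT2 and IRF9 had log2 fold changes of -0.07 ± 0.06 and -0.05 ± 0.19 without a call.

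Outside the chromosome 12 cluster, the organic anion transporter gene SLCO4A1 on chromosome 20 rose 3.70-fold to 66.5 ± 3.67 CPM, against 18.0 ± 2.37 CPM in the control (edgeR adjusted p = 4.25e-14). SLCO5A1 fell by 1.03 ± 0.19, and SLCO4C1 had -0.05 ± 0.11 without a call. Of 5 transporter genes of this family tested besides SLCO1B3, 3 rose and 1 fell, against 31.9% higher and 31.6% lower over all genes tested. SLCO1B1, among the 3, passed the filter on low counts through the SETDB1-knockout libraries alone.

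**Figure D5:**
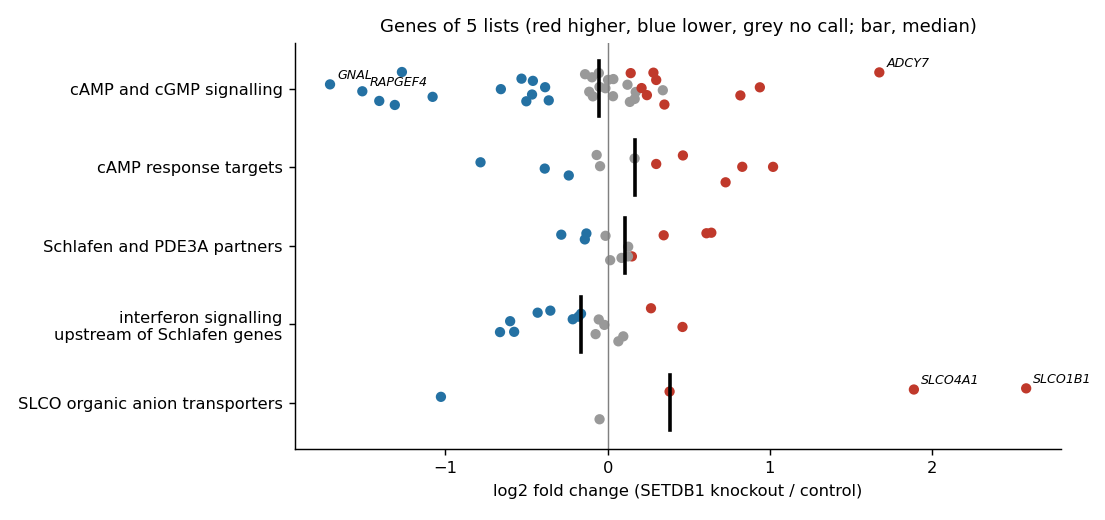
Log2 fold change, SETDB1 knockout over control (horizontal axis), of the tested genes of 5 lists (rows) without PDE3A, SLCO1B3 and SLFN12, coloured by call, with each list's median as a bar. The median is -0.05 for cAMP and cGMP signalling, 0.17 for cAMP response targets, 0.11 for the partners, -0.16 for interferon signalling and 0.38 for the transporters.

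Genes with a pattern like that of PDE3A were found by the root mean square distance between profiles of log2(CPM + 0.1) over the 6 libraries, as a description. The nearest was ZC3HAV1L on chromosome 7, at a distance of 0.287, with 8.54 ± 0.273 CPM in SETDB1-knockout cells, against 0.763 ± 0.0272 CPM in control cells. It was followed by ZNF727 on chromosome 7 (0.325), KHDRBS3 on chromosome 8 (0.343), TNFSF9 on chromosome 19 (0.367) and ITGBL1 on chromosome 13 (0.395). The distance takes in level as well as change. It therefore cannot show whether neighbours at another level, such as SLCO1B3, changed alike. For SLFN12, the nearest were PARD6G (0.223), SPINK9 (0.233), HIST1H4K (0.242), FBXO15 (0.258) and IL23A (0.259), all under 1 CPM in both groups.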

How the data were processed

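Gene expression was measured by RNA-seq in 6 libraries, grouped by sample title. The deposited table holds unnormalized counts of reads by gene. FastQC, TopHat2, HTSeq and the GRCh38.p7 build are named per the submitters' processing notes, and the sources used here give neither settings nor strand use. Each row had a library with at least 11 counts, so genes below that were not analysed here. Identifiers were matched without version to GENCODE 29 (GRCh38), which named 18595 of 18677 rows. In R 4.3.3, edgeR 4.0.16 was used with filterByExpr (17675 genes kept), TMM scaling and robust quasi-likelihood tests, with Benjamini-Hochberg adjustment over all genes tested and a threshold of 0.05. One count was 0.0282 to 0.0334 CPM. Replicates differed by 2.28 to 9.83 in chi-square per degree of freedom, so none was a copy. Steps were tested on simulated counts.

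The genes and the 7 gene lists were chosen with earlier results of these data known. Genes named from the other lists were up to 4 higher and 4 lower calls with the smallest adjusted p among genes of at least 1 CPM in the higher group. All transporter and Schlafen rows, the nearest rows of PDE3A and of the Schlafen cluster and the 5 nearest profiles were also named. PDE9A, PDE2A, PDE10A, PDE6B, PDE6D, RAPGEF4, PRKACA, PRKACB, NR4A2, NR4A3, STAT2, IRF9, IRF1, RPA2, HSPA8, YWHAB and the rows beyond SLCO1A2 were added after their values were seen. Some genes that the rule names are not reported here. Alternatives were other scalings and filters, DESeq2 1.42.0, limma-voom (limma 3.58.1), a replicate block, a neighbourhood median and leaving out each library.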

Additional observations from a re-analysis of the deposited data

How the results depend on the processing

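PDE3A, SLCO1B3, PDE3B and SLFN5 kept their direction in every alternative run, and PDE3B and SLFN5 kept their call wherever a test was made. Leaving out 1 library gave log2 fold changes from 3.32 to 3.83 for PDE3A, 2.75 to 2.96 for SLCO1B3, 0.20 to 0.32 for PDE3B, -0.75 to -0.67 for SLFN5 and 0.71 to 1.19 for SLFN12. SLFN12 missed the threshold with DESeq2 (log2 fold change 0.95, adjusted p = 0.0610) and without SETDB1-knockout replicate 2 or control replicate 3 (edgeR adjusted p = 0.108 and 0.0927, in a range of 0.00317 to 0.108 over its alternatives). The Schlafen list then had 0 members called higher, and also 0 under the filter on 1 CPM, which removed SLFN12. It had 0 to 1 over the fits without 1 library. Partners other than PDE3A and SLFN12 called higher numbered 4, and 3 to 7 over the fits without 1 library, with the 7 without control replicate 3. Partners called lower numbered 1 with library size alone, 1 with upper-quartile scaling and 1 to 2 over the fits without 1 library. The cause was not tested. With the replicate number as a block, 5864 genes were higher and 5839 lower, and the log2 fold change of SLFN12 was 0.95 (edgeR adjusted p = 0.00690). The block changed no call of PDE3B, SLFN5 or SLFN12. With it, the edgeR adjusted p was 1.23e-05 for PDE3B and 6.63e-23 for SLFN5, against 0.00157 and 1.64e-08 without it. Deviations of same-numbered libraries correlated at 0.157, -0.0866 and 0.0616. The labels link these libraries by number only, and whether they share a batch was not tested. With the median of 25 genes on each side taken out, PDE3A was at 3.51 and SLCO1B3 at 2.77. SLFN12 rests on 64 counts in SETDB1-knockout and 32 in control libraries.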
